A study of Gallus gallus with 6 samples.

Results

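Gene expression of the proximal ductus arteriosus (DA) was set against that of the descending aorta in chick embryos at internal pipping (IP), the stage at which the beak enters the air cell and breathing begins. The comparison rests on 4 of the 6 arrays of the series, namely 2 of the pulmonary artery-sided part of the right DA and 2 of the descending aorta, chosen by their titles alone, and on all 20804 probe sets of the array. The other 2 arrays hold the distal DA. In the test they served only to estimate the spread between arrays, and their values are given beside some genes and gene groups. All 3 tissues came from embryos of the Hypeco Nera strain, without any treatment or genetic change named in the sources used here. Each array was made with 100 ng of RNA extracted from the pooled tissue of 10 embryos, and whether the paired arrays of a tissue stem from separate pools is not stated. The p-values therefore cover only the spread among these arrays, and that spread may be technical.

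The DA joins the pulmonary artery to the aorta before birth or hatching and lets blood bypass the lungs. Its wall is rich in smooth muscle that responds to oxygen, prostaglandins and other vasoactive signals, and it closes after breathing starts. The descending aorta carries blood at the same stage but stays patent, and its wall is that of an elastic artery. Smooth muscle of the arteries derived from the pharyngeal arches stems largely from the neural crest, whereas that of the descending aorta stems from mesoderm.

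The deposited values are log2 intensities after robust multi-array average (RMA), on which 1 unit stands for a 2-fold change of intensity. Array medians lay between 6.61 and 6.66, and the 2 arrays of a tissue correlated with an r of 0.981 in the aorta and 0.983 in the proximal DA over all probe sets. The values have no detection call, so low values may be background. Where the mean of one tissue lay below the lower quartile of the arrays (5.25 to 5.41), the size given is not exact, as for *tfap2b*, *pcdh15*, *slc38a4* and *rgs16* in the aorta and *gabrb2* in the proximal DA. Higher and lower refer below to the proximal DA, for probe sets with a Benjamini-Hochberg adjusted p under 0.05 from limma in 1 fit over the 6 arrays. The arrays were made from whole tissue, so fewer cells of a type and less RNA per cell cannot be told apart.

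Of the 20804 probe sets, 692 (3.33%) were higher and 486 (2.34%) were lower in the proximal DA, together 5.66%. At an unadjusted p under 0.05, 18.1% of the probe sets differed in either direction. The higher probe sets had a median difference of 1.12 on the log2 scale, and 94 of them differed at least 4-fold. The lower probe sets had a median difference of -1.02, and 26 of them differed at least 4-fold. At least 8-fold differences numbered 18 among the higher and 1 among the lower probe sets, the latter being *ace*, the angiotensin-converting enzyme. The values of the 2 tissues did not overlap in any of the called probe sets, but this also held for 19.0% of all probe sets in the higher and 23.1% in the lower direction. In 49 of the higher and 55 of the lower probe sets, both arrays of the tissue with the lower values were below their own lower quartile.

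**Figure D1:**
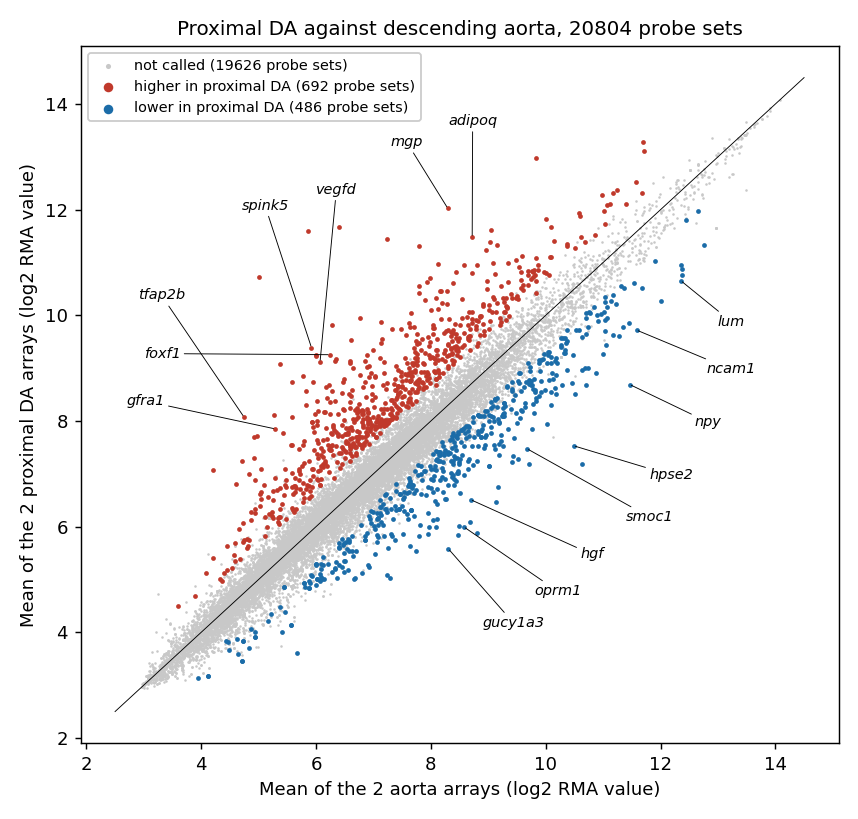
Mean log2 RMA value of the 2 proximal DA arrays (vertical axis) against that of the 2 aorta arrays (horizontal axis) for each of 20804 probe sets. Red and blue points are the 692 and 486 probe sets with higher and lower values in the proximal DA, grey points were not called, and the line marks equal values.

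The number of calls depended on which arrays were used. With each array left out in turn, 231 of the 692 higher and 137 of the 486 lower probe sets passed every time. The number of higher probe sets fell to 261 when proximal DA replicate 2 was left out and to 459 when replicate 1 was. The number of lower probe sets was 191 and 225 in the same fits. A gene described below as higher or lower also passed with each array left out, unless the fits in which it did not pass are given.

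Counted by gene, with the brightest probe set of each of 11528 genes, 528 genes (4.58%) were higher and 312 (2.71%) were lower, and the median difference over all genes was 0. At an unadjusted p under 0.05, 20.2% of the genes differed, and the values did not overlap in 22.3% of them in the higher and 23.3% in the lower direction. These shares and this median are the background for the gene groups below, whose members were chosen with earlier results of these data known. Of 10 measured contractile genes of smooth muscle, a cell type of both the DA and the aorta wall, 9 were higher in the 6-array fit. Not all of these calls held with each array left out, while the median difference of the group stayed between 1.625 and 1.735. The other gene, myosin light chain kinase (*mylk*), had values of 10.40 and 10.33 in the aorta and 10.77 and 10.92 in the proximal DA. The summed linear level of the 10 genes was 10197 and 11144 in the aorta arrays and 30867 and 33034 in the proximal DA arrays. In the distal DA arrays it was 24563 and 26167, nearer to the proximal DA.

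**Figure D2:**
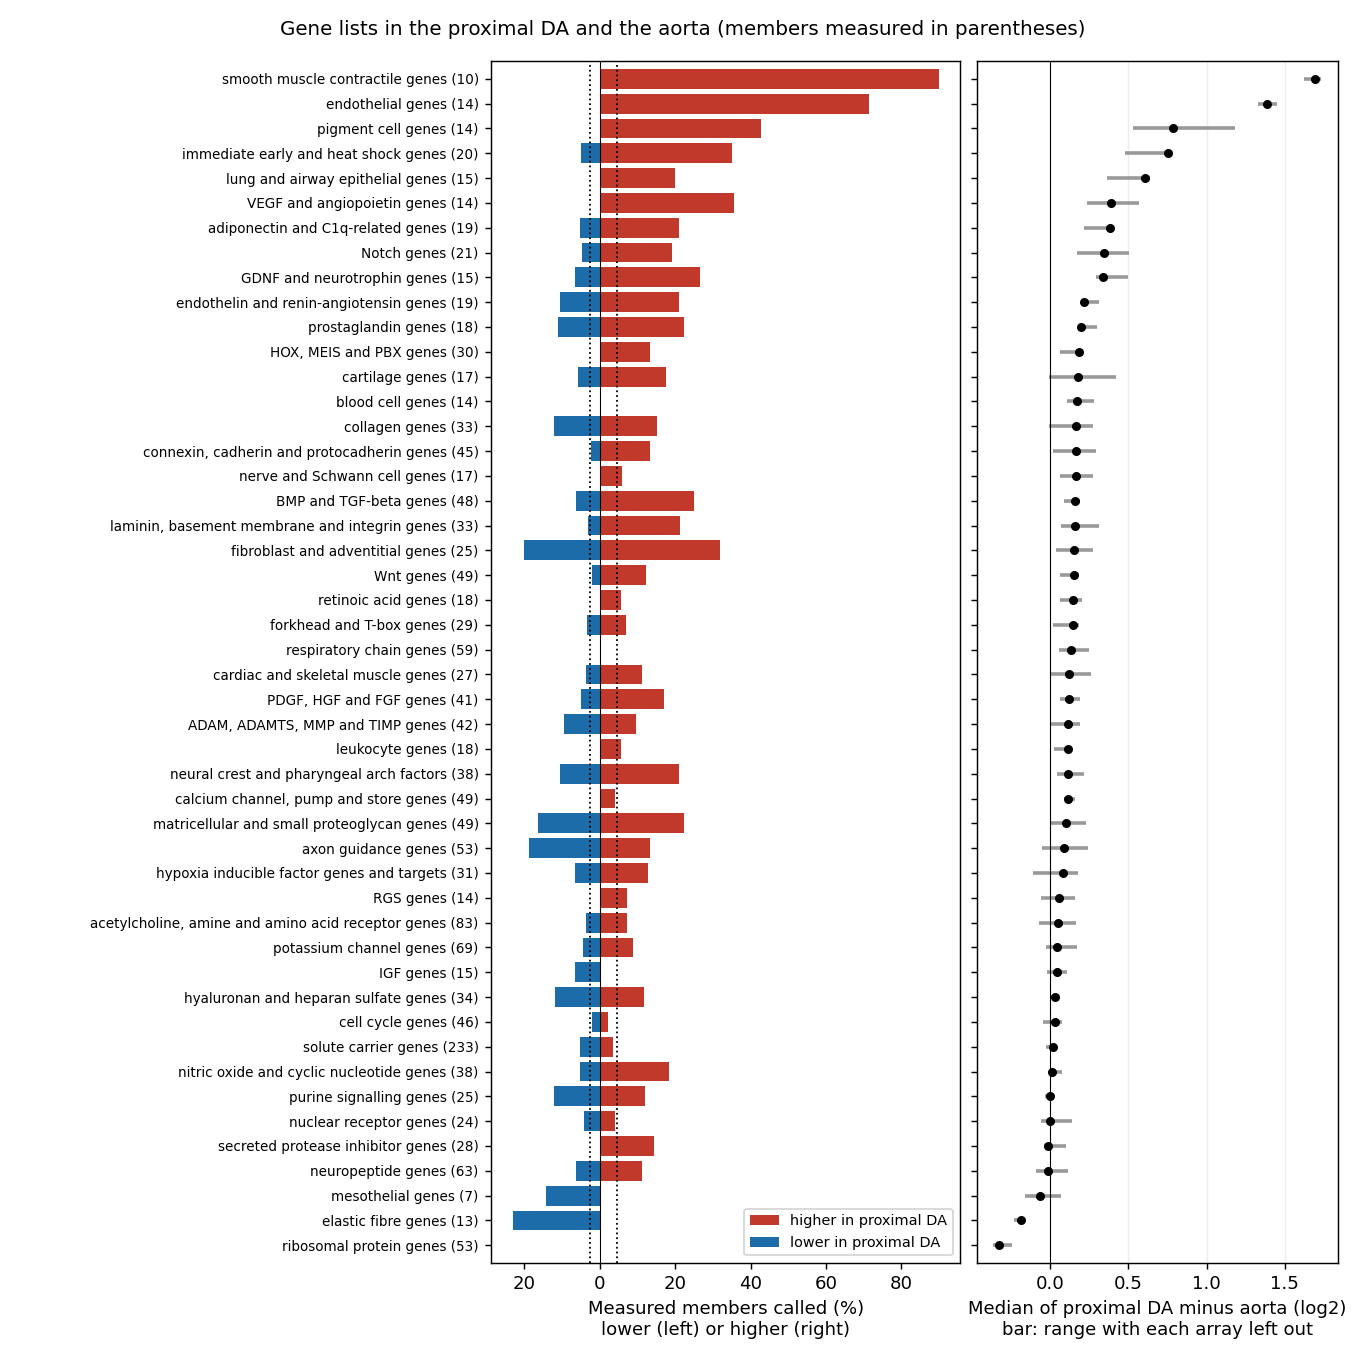
Gene groups ordered by their median difference, with the number of measured genes in parentheses. Left, percentage of members called higher (red) or lower (blue) in the proximal DA, with dotted lines at the 4.58% and 2.71% of all genes. Right, median log2 difference of the members, with a bar over its range when each array is left out.

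Markers of other cell types differed between the tissues too. Of 14 endothelial genes, 10 were higher in the 6-array fit and none was lower. These calls did not all hold with each array left out, while the median difference of the group stayed between 1.33 and 1.45. The summed linear level of the 14 genes was 3645 and 3656 in the aorta and 8125 and 8882 in the proximal DA. Of 14 pigment cell genes, 6 were higher and 0 lower in the 6-array fit. The call of *ednrb2*, a higher gene, did not hold without aorta replicate 1 or proximal DA replicate 2. Sums of the 14 genes were 576 and 628 in the aorta and 1119 and 2112 in the proximal DA. The distal DA had sums of 624 and 584, within the range of the aorta. The 6 genes were each brighter in proximal DA replicate 2 than in replicate 1, by a median of 1.32. Tyrosinase (*tyr*), the first enzyme of melanin synthesis, had values of 4.55 and 4.88 in the aorta and 6.58 and 7.91 in the proximal DA. Of 15 lung and airway epithelial genes, 3 were higher and 0 lower. Sums of the 15 genes were 1302 and 1335 in the aorta and 2866 and 2909 in the proximal DA. The distal DA had sums of 1419 and 1292. Bright genes weigh most in such sums. The cytochrome P450 gene *cyp2c45*, among the 3, was at 6.43 and 6.80 in the aorta and 9.90 and 9.17 in the proximal DA. The brightest probe set of *lamp3*, at 7.60 and 7.68 in the aorta and 8.37 and 9.97 in the proximal DA, also enters the sums. The surfactant protein gene *sftpa2* was at 4.91 and 4.98 in the aorta and at 6.60 and 7.16 in the proximal DA. The epithelial adhesion molecule gene *epcam* was at 4.85 and 5.19 in the aorta and at 7.18 and 6.05 in the proximal DA, and its call did not hold without either array of the aorta or of the distal DA, nor without proximal DA replicate 1. The other probe sets of the lung and immune cell marker *lamp3* did not all agree, since 1 of its 4 probe sets was called, with a difference of 2.08 that did not pass without aorta replicate 1 or proximal DA replicate 2, and the brightest was not, with 1.53 (adjusted p = 0.103).

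Further marker groups differed in how far they lay from the background of 4.58% higher and 2.71% lower genes. Higher calls made up 32% of the fibroblast and adventitial genes, with 20% lower. They made up 35% of the immediate early and heat shock genes and 11.1% of the cardiac and skeletal muscle genes. Of 14 blood cell genes none was called in either direction by limma at the adjusted threshold, and the haemoglobin gene *hba1* was at 8.90 and 10.08 in the aorta and at 9.65 and 11.21 in the proximal DA, brighter in replicate 2 of both tissues. Among 17 nerve and Schwann cell genes 1 was higher, among 18 leukocyte genes 1 was higher and among 7 mesothelial genes 1 was lower, and none of these calls held with every array left out. The 25 fibroblast and adventitial genes were split, with 8 higher and 5 lower (5 higher without proximal DA replicate 2). Of 27 cardiac and skeletal muscle genes, 3 were higher, namely the actin *acta1*, the light chain *myl4* and the stretch-responsive *ankrd1*, and 1 was lower, *nebl*, which passed only without aorta replicate 2 among the fits with an array left out. The heart myosin gene *myh7* was at 6.43 and 6.19 in the aorta and at 6.50 and 6.15 in the proximal DA. Of 20 immediate early and heat shock genes, 7 were higher and 1 was lower, but leaving out proximal DA replicate 1 left 2 higher genes and leaving out replicate 2 left 0. The small heat shock protein gene *hspb1* was at 7.45 and 8.42 in the aorta and at 10.44 and 10.82 in the proximal DA, and did not pass without either proximal DA array. The part that these cell types and stress genes had in the differences below was not tested.

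Transcription factors that act in neural crest or pharyngeal arch cells were among the genes with the largest differences. Of 38 such genes 8 were higher in the proximal DA and 4 were lower, and 6 of the higher but none of the lower calls held with every array left out. The 4 lower genes were *barx2*, *snai2*, *gata6* and *tbx20*, and 1 or none of them passed whichever aorta, distal DA or proximal DA array was left out. The AP-2 factor *tfap2b*, whose mutation in people causes a syndrome with persistent DA, was at 4.83 and 4.66 in the aorta, 6.27 and 6.14 in the distal DA and 7.81 and 8.34 in the proximal DA. The proximal DA exceeded the aorta by 3.33 ± 0.198 (SE) on the log2 scale (adjusted p = 0.000377 from limma), and the values of the 3 tissues did not overlap.

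The forkhead factor *foxf1*, which acts in the mesenchyme of lung and gut, was at 6.23 and 6.25 in the aorta and 9.22 and 9.29 in the proximal DA, a difference of 3.02 ± 0.138 (SE; adjusted p = 0.000159 from limma). The basic helix-loop-helix factor *twist1* was at 6.12 and 6.44 in the aorta and at 8.35 and 8.80 in the proximal DA. The paired-related homeobox factor *prrx2* was at 8.37 and 8.40 in the aorta and at 10.64 and 10.57 in the proximal DA. Both differences were more than 2 log2 units, several times the distance between the 2 arrays of a tissue. The zinc finger repressor *snai1* exceeded the aorta by 1.58 and the muscle factor *mef2c* by 1.13.

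Its relative *snai2* went the other way in the 6-array fit, with 9.89 and 9.61 in the aorta, 7.41 and 7.72 in the distal DA and 8.55 and 8.98 in the proximal DA. Both of its probe sets were called (adjusted p = 0.0349 and 0.0298 from limma), but neither passed without either of the proximal DA or aorta arrays.

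Homeobox genes of the HOX clusters set the position of cells along the body axis. Of 30 HOX, MEIS, PBX and related genes, 4 were higher in the proximal DA and none was lower (2 higher without either proximal DA array or aorta replicate 1). The paralogues of position 4 in the clusters made up 3 of them. *hoxb4* was at 6.81 and 7.15 in the aorta and 8.47 and 8.54 in the proximal DA, and its second probe set was called as well, with a difference of 1.36 against 1.52. *hoxd4* was at 5.69 and 5.76 in the aorta and 6.69 and 6.75 in the proximal DA. *hoxa4* was at 7.28 and 7.17 in the aorta and 8.14 and 7.78 in the proximal DA, and passed only in the fit of all 6 arrays (adjusted p = 0.0458 from limma). The neighbouring *hoxa3* and *hoxb3* had differences of -0.10 and -0.03 and did not pass. The forkhead factor *foxp2*, from a group of 29 forkhead and T-box genes with 2 higher and 1 lower (none lower with any array left out), exceeded the aorta by 1.41 ± 0.148 (SE).

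Some vascular growth factors and receptors were higher in the proximal DA. Of 14 genes of the VEGF and angiopoietin pathways, 5 were higher and none was lower (2 higher without proximal DA replicate 2, 3 without proximal DA replicate 1 or either aorta array). The ligand *vegfd*, which binds the receptors of lymphatic and blood endothelium, was at 5.91 and 6.23 in the aorta, 7.77 and 7.84 in the distal DA and 9.05 and 9.19 in the proximal DA. This amounted to an 8.28-fold difference, 3.05 ± 0.160 on the log2 scale (SE; adjusted p = 0.000235 from limma). The endothelial receptor *kdr* was at 6.33 and 6.15 in the aorta and at 8.22 and 8.49 in the proximal DA, and it belongs to the endothelial genes that were higher in the proximal DA. The receptor *flt4*, to which *vegfd* also binds, was at 6.57 and 6.42 in the aorta and 7.24 and 6.75 in the proximal DA and did not pass (adjusted p = 0.208), nor did *vegfa*, with a difference of 0.68 (adjusted p = 0.0524).

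Among 41 genes of the PDGF, HGF and FGF families, 7 were higher and 2 lower (3 higher without proximal DA replicate 2, 4 without proximal DA replicate 1, and 1 lower without either of them or aorta replicate 1). Fibroblast growth factor 1 (*fgf1*) was at 7.37 and 7.78 in the aorta and 9.61 and 9.64 in the proximal DA by its brighter probe set. Its other probe set did not differ by the test, with a difference of 0.02 (adjusted p = 0.976). *pdgfb*, a ligand that draws mural cells to the endothelium, was higher by 1.20 and *fgf18* by 1.05. Hepatocyte growth factor (*hgf*), a ligand made by mesenchymal cells, was lower, with 8.91 and 8.48 in the aorta, 7.66 and 7.84 in the distal DA and 6.38 and 6.64 in the proximal DA, a 4.55-fold difference. Its receptor *met* had a difference of 0.07 and did not pass.

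Receptors of neurotrophic factors formed a further group. Of 15 GDNF and neurotrophin genes, 4 were higher and 1 was lower, and each of these 5 calls held with every array left out. *gfra1*, the co-receptor of the glial cell line-derived neurotrophic factor, was at 5.17 and 5.41 in the aorta and 7.73 and 7.97 in the proximal DA, with the distal DA in between. *gfra4*, a related co-receptor, was higher by 1.46, *ntrk3*, a neurotrophin receptor, by 1.31 and *cntfr*, the receptor subunit for ciliary neurotrophic factor, by 1.25. The distal DA was not in between for *gfra4* and *ntrk3*. Its means were 9.74 and 9.865, against 9.555 and 9.81 in the proximal DA. The ligand *gdnf* was dim, at 4.38 or lower on the 4 arrays, the signalling receptor *ret* was at 5.91 or lower, and neither passed. The neural cell adhesion molecule *ncam1* was lower, with 11.67 and 11.50 in the aorta and 9.79 and 9.65 in the proximal DA. The nerve and Schwann cell genes given above had a median difference of 0.17, with 14 of 17 above 0, and their summed linear level was 6772 and 6439 in the aorta and 8044 and 7405 in the proximal DA. Their part in these differences was not tested.

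Of 48 genes of the BMP and TGF-beta pathway 12 were higher and 3 lower, and the higher genes included both ligands and secreted antagonists. The number of higher genes was 8 without replicate 1 of the aorta or of the proximal DA and 5 without proximal DA replicate 2, and the number of lower genes was 1 without either proximal DA array and 2 without aorta replicate 1. The ligand *bmp6* was at 7.46 and 7.85 in the aorta and at 9.95 and 10.13 in the proximal DA, and *bmp4* was at 8.21 and 8.48 in the aorta and at 9.70 and 9.66 in the proximal DA. The antagonist *chrdl1* was at 7.27 and 6.99 in the aorta, 6.97 and 7.39 in the distal DA and 9.22 and 9.73 in the proximal DA. Unlike most genes named here, *chrdl1* had overlapping values in the distal DA and the aorta. The antagonist *grem1* exceeded the aorta by 1.48 ± 0.147 (SE). The ligand *gdf5*, known for its role in joints, was lower, by a log2 difference of -1.78 ± 0.134 (SE). The inhibitory *smad6* was higher by 1.26 but not without proximal DA replicate 2, and the signal transducer *smad1* was lower by a log2 difference of -1.08 but not without either proximal DA array.

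Wnt genes act in cell fate and polarity through secreted ligands and soluble proteins that bind them. Of 49 Wnt genes 6 were higher and 1 was lower (4 higher without proximal DA replicate 2). *wnt11*, a ligand that acts mainly outside the beta-catenin route, was at 5.91 and 6.11 in the aorta and 8.10 and 7.90 in the proximal DA. The related ligand *wnt5a* was higher by 1.08. The secreted Frizzled-related proteins, which bind Wnt ligands, were split. *sfrp2* was at 7.19 and 7.05 in the aorta and 9.17 and 9.23 in the proximal DA, and *sfrp1* was higher by 1.39, whereas *frzb* was lower, with 10.69 and 10.59 in the aorta and 9.50 and 9.68 in the proximal DA.

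Of 21 Notch genes 4 were higher and 1 was lower in the 6-array fit, but none passed with every array left out, and without proximal DA replicate 2 neither a higher nor a lower call was left. The receptor *notch1*, with a difference of 1.05, and the ligand *jag2*, with 1.15, were among the higher genes, and the target *hey1*, at -1.05, was the lower gene. Of 18 retinoic acid genes the synthesizing enzyme *aldh1a2* was the sole call (1.21, adjusted p = 0.00848 from limma), and it did not pass without proximal DA replicate 1.

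Axon guidance genes, which also steer endothelial and neural crest cells, differed in both directions. Of 53 genes 7 were higher and 10 lower, 18.9% of them being lower. The number of lower genes was 2 without proximal DA replicate 2, 4 without proximal DA replicate 1 or aorta replicate 1 and 6 without aorta replicate 2, and the number of higher genes was 3 without proximal DA replicate 2. The secreted repellent *sema3a* was at 8.28 and 8.52 in the aorta and 6.71 and 6.85 in the proximal DA. The transmembrane *sema5b* was at 10.26 and 10.11 in the aorta and 8.70 and 8.33 in the proximal DA. In the other direction, the semaphorin receptor *plxna2* was at 6.82 and 6.68 in the aorta and 8.47 and 8.17 in the proximal DA. The class 3 semaphorins *sema3g* and *sema3f* were higher by 1.21 and 1.13. The guidance receptor *robo2* was lower by a log2 difference of -1.07, but not without proximal DA replicate 2. Its ligand *slit3* was higher by 0.97, but not without aorta replicate 1 or either proximal DA array.

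**Figure D3:**
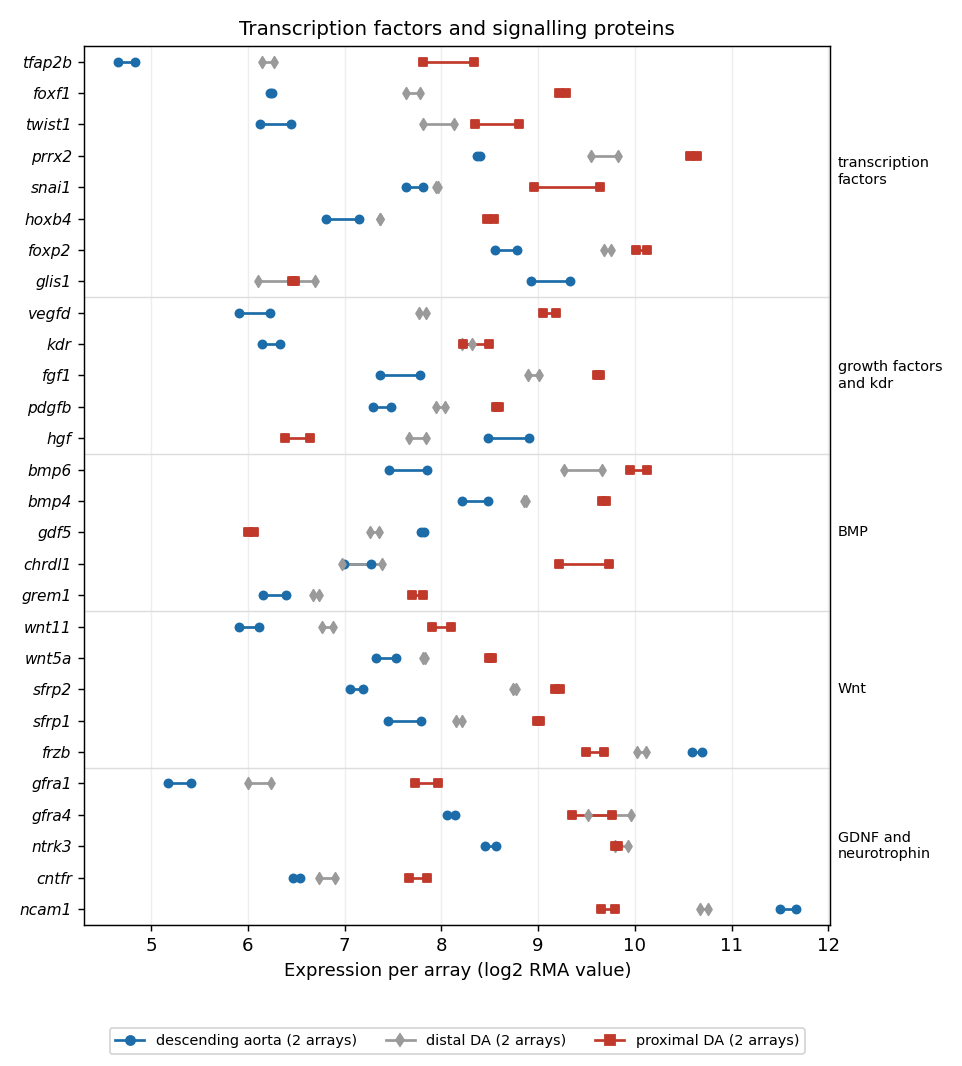
Log2 RMA value of each array for transcription factors and signalling genes, with blue circles for the 2 aorta arrays, grey diamonds for the 2 distal DA arrays and red squares for the 2 proximal DA arrays, each pair joined by a line. In no gene shown do the aorta and proximal DA arrays overlap, and the means of *vegfd*, *foxf1* and *tfap2b* are each more than 3 log2 units apart.

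The large-conductance calcium-activated potassium channel, whose opening relaxes smooth muscle, was higher in the proximal DA in its pore gene and in 2 of its beta subunits. Of 69 potassium channel genes 6 were higher and 3 lower (4 higher and 1 lower without proximal DA replicate 2). The pore gene *kcnma1* was at 7.73 and 7.80 in the aorta and 9.24 and 9.67 in the proximal DA by its brighter probe set, and its other probe set had a difference of 0.66 and did not pass (adjusted p = 0.0897). The beta subunit *kcnmb1* was at 8.25 and 8.28 in the aorta and 9.48 and 9.91 in the proximal DA. The beta subunit *kcnmb2* was at 6.14 and 6.56 in the aorta and 8.92 and 9.44 in the proximal DA, a 7.11-fold difference and the largest of the potassium channel genes. The distal DA was near the proximal DA for *kcnma1* and *kcnmb1*, with values of 9.07 and 9.25 and of 9.62 and 9.71.

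The sodium-activated channel *kcnt1* was also higher, by 1.64, and the modulatory subunit *kcnf1* was lower, with 7.88 and 8.02 in the aorta and 6.45 and 6.06 in the proximal DA. *abcc9*, the regulatory subunit of the vascular ATP-sensitive channel, was lower in the 6-array fit (-0.84, adjusted p = 0.0203 from limma), but not without proximal DA replicate 2 or either aorta array. The voltage-gated *kcna5*, studied for oxygen sensing in the mammalian DA, was dim, at 4.48 or lower on the 4 arrays, and did not pass. Calcium channel, pump and store genes were near the background, with 2 of 49 higher and none lower (1 higher without aorta replicate 2 or proximal DA replicate 2). The T-type channel *cacna1h*, the higher gene that held in every fit, was at 5.63 and 5.52 in the aorta and 8.63 and 8.84 in the proximal DA. The calcium pump *atp2a3* of the sarcoplasmic reticulum, named through the tables of the study and left out of that count, was higher by 2.74, with 9.92 and 9.82 in the proximal DA.

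The phospholipase *plcb2* was at 5.81 and 5.69 in the aorta and 7.11 and 7.19 in the proximal DA, and *ppp1r14c*, an inhibitor of protein phosphatase 1, was higher by 1.94 ± 0.270 (SE). Of 14 RGS genes, which switch off G protein signals, *rgs5* was the sole call. It was at 7.56 and 7.70 in the aorta, 7.95 and 8.18 in the distal DA and 9.85 and 9.72 in the proximal DA, so the distal DA was closer to the aorta. *rgs16*, which was named through the tables of the study and is not counted here, was higher by 2.86.

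Prostaglandins keep the DA open in mammals before birth. Of 18 prostaglandin genes 4 were higher and 2 lower (2 higher without proximal DA replicate 2, 1 lower without either proximal DA array or aorta replicate 1). The inducible cyclooxygenase *ptgs2* was at 6.66 and 7.11 in the aorta and 8.71 and 9.35 in the proximal DA, a 4.42-fold difference. The synthase *hpgds* was at 4.67 and 5.18 in the aorta and higher by 2.77 in the proximal DA, with proximal DA replicate 2 at 8.40. It is also counted among the pigment cell genes, which were higher in the proximal DA, and its values in the distal DA, 5.22 and 4.82, lay within the range of the aorta or next to it. The prostaglandin E synthase *ptges* and the transporter *slco2a1* were higher by 0.81 and 1.23, and the prostaglandin F receptor *ptgfr* was lower by a log2 difference of -1.39. Of these, *slco2a1* did not pass without aorta replicate 2 or proximal DA replicate 2, *ptgfr* not without proximal DA replicate 1, and *ptges* held only without aorta replicate 2. The prostaglandin E receptors *ptger2*, *ptger3* and *ptger4* had differences of 0.30, 0.16 and 0.17 and did not pass.

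Nitric oxide and cyclic nucleotide genes gave 7 higher and 2 lower of 38 (2 higher without proximal DA replicate 2, 3 without proximal DA replicate 1, and 1 lower without either). *gucy1a3*, the alpha subunit of the soluble guanylyl cyclase that receives nitric oxide, was at 8.21 and 8.40 in the aorta, 7.21 and 8.01 in the distal DA and 5.65 and 5.51 in the proximal DA. The proximal DA was 6.61-fold lower (log2 difference -2.73 ± 0.253, SE, adjusted p = 0.00151 from limma). Its partner subunit *gucy1b3* had 7.54 and 7.52 in the aorta and 7.42 and 7.71 in the proximal DA and did not pass. On the side of cyclic AMP, the adenylyl cyclase *adcy6* was at 7.84 and 7.93 in the aorta and 8.97 and 9.17 in the proximal DA, and the phosphodiesterase *pde3a*, which breaks down cyclic AMP, was at 9.66 and 9.73 in the aorta and 10.73 and 10.95 in the proximal DA.

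Endothelin and renin-angiotensin genes had 4 higher and 2 lower of 19, but none of the 4 higher genes passed without proximal DA replicate 2. They were the peptide *edn1*, the contractile endothelin receptor *ednra*, the avian receptor *ednrb2*, which is also a pigment cell gene, and the peptidase *mme*. *edn1* also failed without aorta replicate 2 or proximal DA replicate 1, and *ednrb2* without aorta replicate 1. *ednra* was at 7.76 on both aorta arrays and at 8.87 and 9.25 in the proximal DA. The angiotensin receptor *agtr2*, one of the 2 lower genes beside *ace*, had a log2 difference of -1.15 and did not pass without aorta replicate 1 or either proximal DA array.

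Neuropeptides and their receptors were higher in 7 and lower in 4 of 63 genes. The number of higher genes was 4 without replicate 1 of the aorta or of the proximal DA and 1 without proximal DA replicate 2. Neuropeptide Y (*npy*), a peptide released with noradrenaline by sympathetic nerves, was at 11.34 and 11.59 in the aorta, 10.11 and 10.34 in the distal DA and 8.45 and 8.93 in the proximal DA. The proximal DA was 6.84-fold lower (adjusted p = 0.000658 from limma), and the 3 tissues did not overlap. The mu opioid receptor *oprm1* was at 8.76 and 8.39 in the aorta and 6.18 and 5.81 in the proximal DA. Against these, *vipr2*, a receptor of the vasoactive intestinal peptide, was at 8.11 and 7.95 in the aorta and 9.48 and 9.82 in the proximal DA. The adrenomedullin receptor *calcrl*, at 5.95 and 6.23 in the aorta and 7.13 and 7.85 in the proximal DA, was higher, and so was its partner *ramp2*, by 1.42, but *calcrl* did not pass without aorta replicate 1 or proximal DA replicate 2, nor *ramp2* without either proximal DA array.

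Of 83 receptor genes for acetylcholine, amines and amino acids, 6 were higher and 3 lower (2 higher without proximal DA replicate 2, 3 without proximal DA replicate 1, 4 without either aorta array). The muscarinic receptor *chrm2* was at 5.22 and 5.63 in the aorta and 7.44 and 8.09 in the proximal DA. The serotonin receptor *htr1b* was at 7.28 and 7.09 in the aorta and 8.93 and 9.31 in the proximal DA. The noradrenaline transporter *slc6a2* was higher too, by 1.83 ± 0.221 (SE). The glutamate receptor subunit *gria1* was lower, with 8.72 and 8.56 in the aorta and 7.29 and 6.88 in the proximal DA, and the GABA receptor subunit *gabrb2* had 6.39 and 6.93 in the aorta and 5.01 and 4.99 in the proximal DA. The sympathetic enzymes *th* and *dbh* differed by -0.03 and 0.06 and did not pass.

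Enzymes that degrade extracellular nucleotides differed in opposite directions. Of 25 purine signalling genes 3 were higher and 3 lower in the 6-array fit. In neither direction did all of these calls hold with each array left out. The call of *enpp2*, a higher gene, did not hold without aorta replicate 1 or proximal DA replicate 2. The ecto-ATPase *entpd2* was at 6.61 and 6.59 in the aorta, 7.84 and 7.99 in the distal DA and 9.10 and 9.17 in the proximal DA (2.54 ± 0.138, SE, adjusted p = 0.000246 from limma). The UDP-glucose receptor *p2ry14* was higher by 2.06. Adenosine deaminase (*ada*) was lower, with 8.37 and 8.50 in the aorta and 6.92 and 6.80 in the proximal DA. So was *enpp1*, which makes pyrophosphate from ATP, in both of its probe sets (-1.40 and -1.55).

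**Figure D4:**
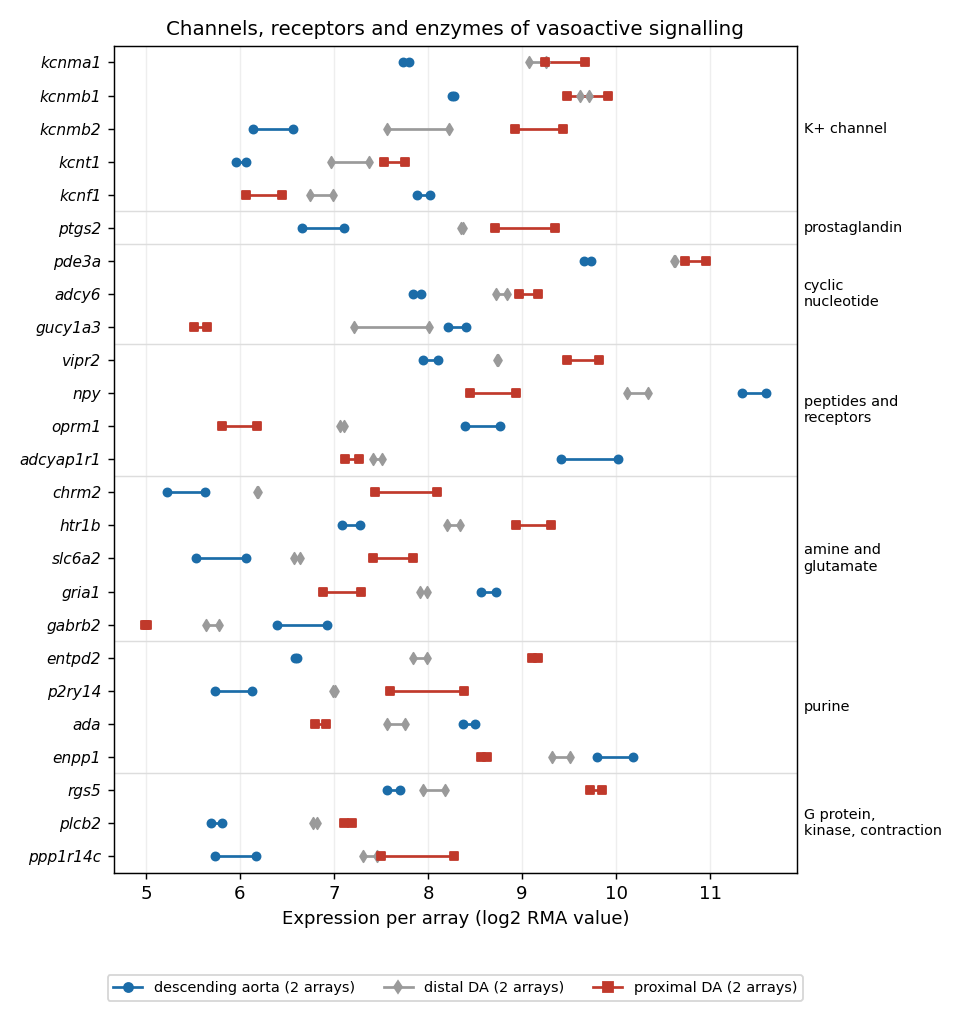
Log2 RMA value of each array for ion channel, receptor, peptide and enzyme genes, drawn as in the plot of transcription factors and signalling genes. The aorta and proximal DA arrays do not overlap in any gene shown, with *npy*, *oprm1* and *gucy1a3* lower and *kcnmb2*, *entpd2* and *chrm2* higher in the proximal DA.

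The extracellular matrix differed in composition more than in 1 direction. Of 49 matricellular and small proteoglycan genes, 11 were higher and 8 lower, and 9 and 6 of these calls held with every array left out. Matrix Gla protein (*mgp*), an inhibitor of calcification, was at 7.71 and 8.88 in the aorta, 11.14 and 11.67 in the distal DA and 11.83 and 12.22 in the proximal DA. Its 13.3-fold difference (3.73 ± 0.373 on the log2 scale, SE, adjusted p = 0.00197 from limma) came with a large spread between the aorta arrays. *mamdc2*, a secreted proteoglycan gene, was at 5.95 and 5.96 in the aorta and 8.79 and 8.68 in the proximal DA.

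Several of the higher genes are best known from cartilage and tendon. The cytokine-like *cytl1* was at 5.52 and 5.63 in the aorta and 8.32 and 7.84 in the proximal DA, and chondroadherin (*chad*) was at 9.29 and 9.03 in the aorta and 11.31 and 11.35 in the proximal DA. Cartilage oligomeric matrix protein (*comp*) was at 6.63 and 6.79 in the aorta, 6.77 and 6.60 in the distal DA and 8.10 and 8.20 in the proximal DA, so that the distal DA lay within the range of the aorta. These were the 3 higher genes among 17 cartilage genes, 1 of which was lower. The lower one, the hyaluronan link protein *hapln1*, was at 11.12 and 10.96 in the aorta and 9.47 and 9.95 in the proximal DA, whereas the related *hapln3* was higher by 1.81.

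The lower matrix genes included abundant ones. Lumican (*lum*), a small proteoglycan of collagen fibrils, was at 12.45 and 12.26 in the aorta and 10.74 and 10.57 in the proximal DA. *smoc1*, a calcium-binding matricellular protein, was at 9.56 and 9.79 in the aorta, 9.44 and 9.57 in the distal DA and 7.46 and 7.49 in the proximal DA, so that here too the distal DA was like the aorta. Of 34 hyaluronan and heparan sulfate genes 4 were higher and 4 lower (1 each without proximal DA replicate 2). Heparanase 2 (*hpse2*), which binds heparan sulfate, was at 10.43 and 10.55 in the aorta, 9.74 and 9.67 in the distal DA and 7.77 and 7.29 in the proximal DA, a 7.78-fold difference (adjusted p = 0.000413 from limma). The heparan sulfate proteoglycan syndecan 4 (*sdc4*) was higher by 1.52. Among 33 collagen genes 5 were higher and 4 lower (2 higher without proximal DA replicate 1, 3 without proximal DA replicate 2 or aorta replicate 1), and of the less described members *col26a1* was higher by 1.99. Of 13 elastic fibre genes 3 were lower and none was higher in the 6-array fit. Not all of these calls held with each array left out, while the median difference of the group stayed between -0.23 and -0.16.

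Basement membrane and adhesion genes were mostly higher where they differed, with 7 higher and 1 lower of 33 (3 higher without aorta replicate 2 or proximal DA replicate 1, 4 without aorta replicate 1). The laminin alpha chain *lama4*, found in the basement membranes of vessels, was at 7.15 and 7.51 in the aorta and 9.65 and 9.83 in the proximal DA. The integrin subunit *itgb3* was at 7.80 and 7.69 in the aorta and 9.35 and 9.67 in the proximal DA. Nephronectin (*npnt*), a basement membrane ligand of integrins, was the lower gene, with 9.92 and 9.84 in the aorta and 8.23 and 8.73 in the proximal DA.

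Of 28 secreted protease inhibitors 4 were higher in the 6-array fit and none was lower. The call of *tfpi2*, a higher gene, did not hold without aorta replicate 1 or either proximal DA array. The Kazal-type inhibitor *spink5* was at 5.99 and 5.85 in the aorta, 7.90 and 7.88 in the distal DA and 9.52 and 9.26 in the proximal DA, an 11.1-fold difference (adjusted p = 0.000135 from limma). Its second probe set, at 5.89 and 5.72 in the aorta and 6.28 and 5.65 in the proximal DA, did not pass. The anti-angiogenic serpin *serpinf1* was at 10.63 and 10.56 in the aorta and 11.82 and 11.93 in the proximal DA. Genes of the proteases themselves gave 4 higher and 4 lower of 42 ADAM, ADAMTS, MMP and TIMP genes, and the higher ones numbered 0 without proximal DA replicate 2, and 2 without any other array but aorta replicate 2. The lower ones numbered 2 without proximal DA replicate 2.

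Adiponectin (*adipoq*), a hormone made mainly by fat cells, was at 8.67 and 8.77 in the aorta, 10.77 and 10.90 in the distal DA and 11.43 and 11.53 in the proximal DA. The 6.77-fold difference (2.76 ± 0.140 on the log2 scale, SE, adjusted p = 0.000235 from limma) was many times the distance between replicate arrays. It was 1 of 4 higher genes among 19 measured from a list of adiponectin, its receptors, C1q-related proteins and some fat cell and lipid genes. Not all of the higher calls held with each array left out. The lower one, *c1qtnf3*, was at 7.21 and 7.39 in the aorta and 5.76 and 5.95 in the proximal DA.

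**Figure D5:**
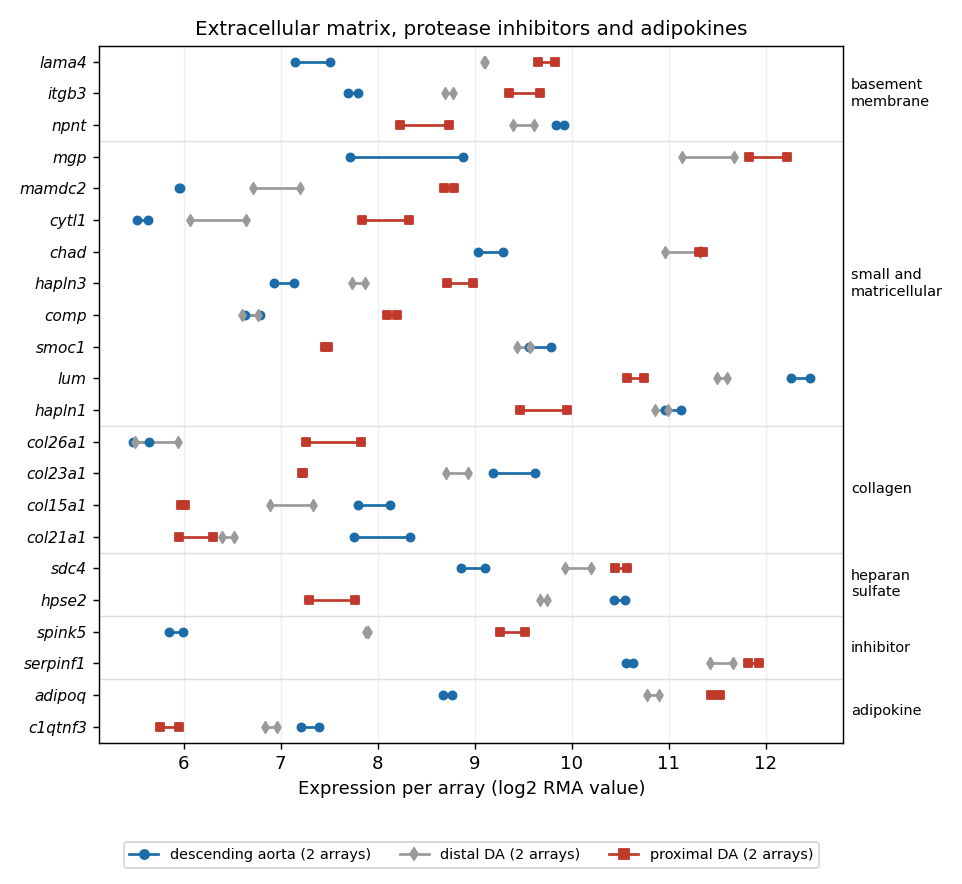
Log2 RMA value of each array for matrix, protease inhibitor and adipokine genes, drawn as in the plot of transcription factors and signalling genes. The aorta and proximal DA arrays do not overlap in any gene shown, and the distal DA arrays lie within the range of the aorta or next to it for *comp*, *smoc1*, *hapln1* and *col26a1*.

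Of 233 solute carriers 8 (3.43%) were higher and 12 (5.15%) lower, against 4.58% and 2.71% of all genes. The number of higher ones was 5 without aorta replicate 2 or proximal DA replicate 2, and the number of lower ones was 5 without either proximal DA array. The neutral amino acid transporter *slc38a4* was at 4.74 and 5.21 in the aorta and 7.31 and 8.14 in the proximal DA, and the sodium/proton exchanger *slc9a7* was higher by 2.05 ± 0.165 (SE). The zinc transporter *slc39a11* was lower, with 9.19 and 9.34 in the aorta and 7.61 and 7.46 in the proximal DA. Among 45 connexin, cadherin and protocadherin genes 6 were higher and 1 was lower in the 6-array fit. The lower call held in no fit with an array left out, and not all of the higher calls held in every such fit. The connexin *gjc3* was higher by 1.96 and *gja5*, a connexin of arterial endothelium, by 1.60, beside the higher endothelial markers.

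Of 31 hypoxia inducible factor genes and targets, 4 were higher and 2 lower (2 higher without proximal DA replicate 2, aorta replicate 1 or either distal DA array, and 0 lower without the former 2). The collagen lysyl hydroxylase *plod2* was at 8.31 and 8.05 in the aorta and 9.80 and 10.08 in the proximal DA, and the glucose transporter *slc2a1* was higher by 1.14. *hif1a* was at 7.30 and 6.13 in the aorta and at 4.89 and 6.14 in the proximal DA, with a wide spread within both tissues, and did not pass. Respiratory chain genes (59) and ribosomal protein genes (53) held no call by limma at the adjusted threshold. The ribosomal protein genes nevertheless had a median difference of -0.33, which was not tested for the group. Their mean log2 level was 10.28 and 10.15 in the aorta, 10.02 and 10.13 in the distal DA and 9.90 and 9.87 in the proximal DA. The genes share the same arrays, so counts of them are not independent. Of these 53 genes, 17 had an unadjusted p under 0.05 from limma in the lower direction, against 1109 of all 11528 genes. Lower values on both proximal DA arrays than on both aorta arrays were found in 42 of them, against 23.3% of all genes. Among 46 cell cycle genes 1 was higher and 1 lower, and neither call held with every array left out.

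Of 402 microRNA probe sets 7 (1.74%) were higher and 3 (0.746%) lower, together 2.49%. These shares were below those of all probe sets, which were 3.33% higher and 2.34% lower, together 5.66%. Targets were made from total RNA with a whole-transcript kit. Whether these probe sets read mature microRNAs or their longer precursors was not tested. In 182 of the 402, all arrays of both tissues were under their own lower quartile, against 1493 of the 11528 genes. *mir1653* was the one higher call which held with every array left out, with 11.23 and 11.26 in the aorta, 12.09 and 12.12 in the distal DA and 12.30 and 12.45 in the proximal DA. The neighbouring *mir23b* and *mir27b*, which lie in 1 cluster in vertebrates, were higher by 0.94 and 0.98, but neither passed without either proximal DA array, nor *mir23b* without aorta replicate 2 or either distal DA array, nor *mir27b* without aorta replicate 1. *mirlet7d* and *mir199b* were both lower by a log2 difference of -0.92. *mirlet7d* did not pass without aorta replicate 2 or either proximal DA array, and *mir199b* not without aorta replicate 1 or proximal DA replicate 1. With each array left out, between 1 and 4 microRNAs were higher and between 1 and 6 lower, the fewest higher ones without proximal DA replicate 2 and the fewest lower ones without replicate 1 of that tissue.

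Several large differences lay outside the groups described above. The orphan G protein-coupled receptor *gpr20* was at 6.32 and 6.25 in the aorta, 9.15 and 9.06 in the distal DA and 9.56 and 10.07 in the proximal DA, an 11.6-fold difference (adjusted p = 0.000235 from limma). *fam13c* was at 5.46 and 5.29 in the aorta and 8.76 and 9.41 in the proximal DA, and *phyhipl* was at 5.72 and 5.83 in the aorta and 8.45 and 9.26 in the proximal DA. In all 3 of these genes the distal DA was nearer to the proximal DA than to the aorta. The adhesion receptor *adgrg6*, known for its role in Schwann cells, was higher by 2.16. In the other direction, *spata13*, an activator of small GTPases, was lower in both of its probe sets (-2.63 and -2.60). The receptor phosphatase *ptpro* was at 7.67 and 7.62 in the aorta, 7.31 and 7.24 in the distal DA and 5.57 and 5.69 in the proximal DA. The secreted glycoprotein *stc2* was lower by a log2 difference of -1.69. It was counted in a group of 15 IGF genes, of which 1 was lower and none higher. One further probe set, with a difference of 3.17, is annotated as *smarcb1* by the array but carries another gene name in the tables of the study, so its gene remains uncertain.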

How the data were processed

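The authors hybridized labelled targets of the 3 tissues to Affymetrix GeneChip Chicken Gene 1.0 ST arrays, 2 per tissue. The labels name biotinylated cRNA and the study's methods name labelled cDNA. The authors corrected the background, quantile normalized the arrays and summarized the probes by RMA in the oligo package of Bioconductor, and the deposited values are log2 RMA values with 2 decimals. A genome build was not found among the sources used here.

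From there, a linear model was fitted in R 4.3.3 with limma 3.58.1 (empirical Bayes without trend) to all 6 arrays with tissue means as terms, 3 residual and 4.40 prior degrees of freedom, and Benjamini-Hochberg adjustment over 20804 probe sets. No probe set was removed. The median SE of a difference was 0.168, and precision is limited by how few arrays there are. The limma fit, but not the later steps, was first tested on simulated data with known changes. Tables were summarized with Python and pandas.

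Symbols came from the array annotation. It gave 1 symbol for 12300 probe sets, several for 256 and none for 8248. RefSeq held 11727 of the single symbols. A further 10 probe sets were named from the study's tables and left out of the group counts. Each gene was represented by its brightest probe set. Summed linear levels are sums of 2 raised to the log2 value.

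Genes to name were drawn from several sets, not all of whose members are named, and some of the largest differences are left out. Among called probe sets with 1 symbol, these sets were the 25 largest and 25 smallest differences and the 10 smallest p in each direction. They also held up to 10 called members of each group, by largest difference, or the 2 with the smallest p where none was called. Every member of groups of 12 or fewer was included, as was every gene the study names. So were all contractile, endothelial, pigment and RGS genes and every called microRNA. Members that did not pass, and single members such as *th*, *flt4*, *gucy1b3* and *ptger4*, were named after their values had been seen. The members, the 50 groups and the rule were chosen with earlier results of these data known. A lone array left in a tissue was taken to vary like the arrays of the other tissues. Alternatives were a fit of only the 4 arrays compared, eBayes with trend and robust, a minimum of 2-fold, quantile or cyclic loess normalization once more, only the brighter 0.5 of the probe sets, replicate numbers as a block, the omission of each array, all probe sets of a gene, and a ranking by the ratio of mean log2 values. No nucleotide or protein sequence is shown, and 1 group is not reported here.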

Additional observations from a re-analysis of the deposited data

How the results depend on the processing

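The numbers of 692 higher and 486 lower probe sets stayed within 1.5 times under a fit of only the 4 arrays compared (530 and 350), eBayes with trend and robust (740 and 541), repeated quantile normalization (727 and 460), cyclic loess normalization (765 and 486) and the brighter 0.5 of the probe sets (734 and 540). A minimum of 2-fold left 432 and 259. With each array left out in turn, higher probe sets numbered 261 to 530 and lower ones 191 to 597, and they moved by more than 1.5 times only without a proximal DA array. Leaving out 1 distal DA array gave the counts of the fit of 4 arrays, since the lone distal DA array then adds nothing to the spread. With an array left out, the median difference changed sign in 19 of 50 groups, of which 3 had a median over 0.1 in size. These 3 changed without proximal DA replicate 1, to -0.005 for cardiac and skeletal muscle genes, -0.01 for cartilage genes and -0.01 for collagen genes, against 0.26, 0.42 and 0.28 without proximal DA replicate 2. The cause was not tested.

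Whether the replicate numbers pair the arrays is not stated in the sources used here. The deviations of same-numbered arrays from their tissue means correlated with an r of -0.0339 between aorta and proximal DA, 0.199 between aorta and distal DA and 0.321 between distal and proximal DA. With the replicate number as a block, 714 probe sets were higher and 506 lower. With 2 arrays per tissue and no detection calls, differences of dim probe sets are the least certain.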
